A study of Homo sapiens with 6 samples.

Results

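The J-domain or HSP40 genes studied here were the rows of the deposited human gene table with a symbol of the form DNAJA, DNAJB or DNAJC plus a number and at least 1 protein-coding transcript. There were 42 such genes of 58825: 4 of class A, 12 of class B and 26 of class C. RNA came from MDA-MB-231, an established line from a human breast cancer of the triple-negative kind. One group had vehicle (DMSO) and the other disulfiram with copper (DSF/Cu) at 0.2 µM, both for 24 h, with 3 libraries each and the cells of 3 wells pooled per library. Disulfiram is an inhibitor of aldehyde dehydrogenases whose main metabolite binds copper, and no group had disulfiram or copper alone. The labels do not say whether the 3 libraries of a group came from separate cultures, so each p-value below speaks only of how far these libraries spread, and that spread may be technical.

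J-domain proteins are the partners that set HSP70 chaperones to work. The J domain stimulates the ATPase of HSP70, which then closes on a client protein, and nucleotide exchange factors reset the cycle. Class A and class B proteins also bind unfolded clients themselves, whereas class C proteins share little beyond the J domain and tie HSP70 to single tasks such as clathrin uncoating, mitochondrial import or splicing. In the cytosol the heat shock factor HSF1 raises several of these genes through heat shock elements, repeats of the unit GAA in alternating orientation. In the endoplasmic reticulum (ER) the unfolded protein response raises others.

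The 6 genes that rose at least 2-fold after DSF/Cu were *DNAJA4*, *DNAJB1*, *DNAJB4* and *DNAJB2* of the cytosol and *DNAJB9* and *DNAJB11* of the ER lumen. Every fall past the test was in class C, which held 25 of the 39 tested genes. With libraries scaled by total counts, 1 class B gene fell as well. DNAJB1, the stress-inducible HSP40, rose 8.23-fold, DNAJB9 of the ER lumen 4.18-fold and DNAJB4, a close relative of DNAJB1, 3.76-fold. DNAJA4 rose 9.03-fold but from a very low level. Of the 42 genes, 39 passed the filter on low counts; 18 rose, 6 fell and 15 were not called (edgeR quasi-likelihood test, Benjamini-Hochberg adjusted p under 0.05 over 18229 genes). Of all tested genes, 18.5% rose and 16.8% fell. A rise of at least 2-fold was called for 6 of the 39 genes and for 7.42% of all tested genes. The median log2 change was 0.26 over the 39 genes and 0.0023 over all tested genes.

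Libraries held 55563223 to 70883177 counts. Levels below are CPM, counts brought to one library size with TMM scaling, which assumes that most genes do not change. Under scaling by total counts the median change of all genes moved to -0.18 and the members' calls to 12 rises and 11 falls, so that rises were 52.2% of the members' calls in place of 75%. Over all genes the share of rises among calls was 32.7% under total counts and 52.4% under TMM. All changes given here rest on TMM scaling, and a change near 0.2 on the log2 scale depends on that choice. Of the line's markers *VIM*, *CD44*, *KRT18*, *CAV1* and *LGALS1* summed to 4116 to 4544 CPM in DMSO and 3375 to 3904 after DSF/Cu. Receptor and epithelial markers that the line has little of (*ESR1*, *PGR*, *ERBB2*, *CDH1* and *EPCAM*) summed to 75.3 to 81.3 CPM in DMSO and 40.3 to 47.4 after DSF/Cu, nearly all from *ERBB2*. Of 9 markers of immune, endothelial, fat and stromal cells, 6 had no count in any library and the highest count of the others was 56. The 9 summed to 0.262 to 0.627 CPM in DMSO and 0.586 to 0.975 after DSF/Cu.

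Promoters of 5 raised cytosolic genes are shown first, since they hold the heat shock element letters. The other raised genes with a promoter, *DNAJB2* of the cytosol among them, hold none of these letters. The promoters of *DNAJA4*, *DNAJA1* and *DNAJB6* were added after their values and matches were seen. RefSeq promoters (GRCh38.p14, 250 bases before to 50 after a start site) were found for 39 of the 42 genes, 51 promoters in all. The sequences run 5′ to 3′ on the gene's own strand. Capitals mark GAANNTTC or TTCNNGAA, 2 units of the element in either arrangement, and, where such runs overlap, the 3-unit form, GAANNTTC followed directly by NNGAA.
*DNAJB1*, chr19:14518348-14518647, minus strand: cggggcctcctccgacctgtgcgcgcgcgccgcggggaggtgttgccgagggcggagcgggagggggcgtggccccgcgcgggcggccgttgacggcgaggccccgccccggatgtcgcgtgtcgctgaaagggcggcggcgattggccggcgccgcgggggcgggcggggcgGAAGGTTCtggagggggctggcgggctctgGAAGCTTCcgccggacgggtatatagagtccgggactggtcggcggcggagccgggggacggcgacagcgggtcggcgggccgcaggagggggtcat
*DNAJA4*, chr15:78264312-78264611, plus strand: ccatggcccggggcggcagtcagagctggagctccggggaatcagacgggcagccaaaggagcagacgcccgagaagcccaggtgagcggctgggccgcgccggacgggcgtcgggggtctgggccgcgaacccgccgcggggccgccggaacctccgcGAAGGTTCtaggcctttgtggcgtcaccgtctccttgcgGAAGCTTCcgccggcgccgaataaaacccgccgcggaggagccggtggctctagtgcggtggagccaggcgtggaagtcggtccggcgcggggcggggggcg
*DNAJA1*, chr9:33025023-33025322, plus strand: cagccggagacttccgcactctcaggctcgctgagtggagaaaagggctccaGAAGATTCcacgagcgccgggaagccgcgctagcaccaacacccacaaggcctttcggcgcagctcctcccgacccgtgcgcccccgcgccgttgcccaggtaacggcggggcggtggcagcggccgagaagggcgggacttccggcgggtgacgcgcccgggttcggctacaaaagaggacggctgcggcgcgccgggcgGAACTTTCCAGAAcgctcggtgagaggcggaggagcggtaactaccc
*DNAJB6*, chr7:157336754-157337053, plus strand: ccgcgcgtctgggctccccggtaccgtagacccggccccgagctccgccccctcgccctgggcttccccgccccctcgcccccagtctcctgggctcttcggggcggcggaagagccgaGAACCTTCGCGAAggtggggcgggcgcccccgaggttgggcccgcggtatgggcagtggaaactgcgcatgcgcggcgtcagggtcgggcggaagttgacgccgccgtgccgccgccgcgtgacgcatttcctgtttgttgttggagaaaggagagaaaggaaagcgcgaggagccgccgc
*DNAJB4*, chr1:78004689-78004988, plus strand: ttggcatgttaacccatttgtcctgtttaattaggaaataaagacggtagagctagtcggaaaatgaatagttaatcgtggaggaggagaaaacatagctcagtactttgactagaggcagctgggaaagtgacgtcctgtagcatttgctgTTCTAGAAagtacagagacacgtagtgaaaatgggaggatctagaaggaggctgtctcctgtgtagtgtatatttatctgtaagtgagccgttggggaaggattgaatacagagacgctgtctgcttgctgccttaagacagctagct

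*DNAJB1* and *DNAJA4*, which had the largest fold rises, carried the same pair of octamers, GAAGGTTC followed by GAAGCTTC. Counted from the start site, the octamers began at -77 and -47 in *DNAJB1* and at -91 and -52 in *DNAJA4*. Both promoters share a run of 15 bases around the second octamer, ggaagcttccgccgg. At least 2 matches to GAANNTTC were found in 138 of 35116 promoters of all genes (0.393%), and in 3 of the 51 promoters here, those of *DNAJA1*, *DNAJA4* and *DNAJB1*. Of the 3 promoters listed for *DNAJB1* the one shown starts nearest to the principal transcript, 23 bases away. For *DNAJA4* the promoter was chosen, after the matches were seen, because it holds them, and it starts 476 bases from the principal transcript. The other 2 listed for that gene hold none. How often other pairs of promoters share a run of 15 bases was not counted.

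The 3-unit form was found in 172 of all 35116 promoters (0.49%; all motifs were searched on both strands) and in 2 of the 51, those of *DNAJA1* and *DNAJB6*, both raised. In *DNAJA1* it lies just after the start site and in *DNAJB6* it begins at -131. GAANNTTC was in 7 of the 51 promoters, against 6.77% of all promoters, and TTCNNGAA in 4 of the 51, against 7.74%. The first was held by 6 genes, 4 of them raised, and the second by 4 genes, 3 of them raised; of the 39 genes with a promoter 16 were raised. Every 3-unit match counts under both of these as well. The matches in genes that were not called were in *DNAJB7*, *DNAJC6* and *DNAJC15*. A match is a description of letters, and no binding was measured.

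For contrast, the next 4 promoters are those of the ER lumen genes with the largest rises and of the 2 called genes with the largest falls. None of the 4 holds a heat shock element of the letters above. Capitals mark CCAAT or its reverse complement ATTGG, the box that forms part of the ER stress response element and that 34.6% of all promoters hold. In the promoters printed above this box was left in lower case, and that of *DNAJB1* holds it too, as ATTGG beginning at -108.
*DNAJB9*, chr7:108569624-108569923, plus strand: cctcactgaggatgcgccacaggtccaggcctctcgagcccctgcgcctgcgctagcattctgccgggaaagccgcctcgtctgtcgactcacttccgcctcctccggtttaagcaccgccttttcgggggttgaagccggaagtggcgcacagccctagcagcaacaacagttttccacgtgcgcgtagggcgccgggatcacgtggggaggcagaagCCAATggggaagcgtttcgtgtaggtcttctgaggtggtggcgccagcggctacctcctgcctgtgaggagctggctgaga
*DNAJB11*, chr3:186570470-186570769, plus strand: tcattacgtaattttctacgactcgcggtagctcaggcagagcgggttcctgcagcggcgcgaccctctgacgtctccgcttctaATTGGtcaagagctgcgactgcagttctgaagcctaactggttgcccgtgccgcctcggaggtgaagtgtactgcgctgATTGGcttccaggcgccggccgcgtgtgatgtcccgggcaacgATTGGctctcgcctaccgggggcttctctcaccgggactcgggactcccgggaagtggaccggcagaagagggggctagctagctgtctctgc
*DNAJC13*, chr3:132417252-132417551, plus strand: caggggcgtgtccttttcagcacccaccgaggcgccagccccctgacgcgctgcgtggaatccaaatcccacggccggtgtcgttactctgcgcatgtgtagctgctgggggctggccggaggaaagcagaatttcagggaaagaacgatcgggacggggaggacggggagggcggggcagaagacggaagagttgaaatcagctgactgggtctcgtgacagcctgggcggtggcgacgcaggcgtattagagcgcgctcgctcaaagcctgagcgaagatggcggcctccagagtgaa
*DNAJC9*, chr10:73247206-73247505, minus strand: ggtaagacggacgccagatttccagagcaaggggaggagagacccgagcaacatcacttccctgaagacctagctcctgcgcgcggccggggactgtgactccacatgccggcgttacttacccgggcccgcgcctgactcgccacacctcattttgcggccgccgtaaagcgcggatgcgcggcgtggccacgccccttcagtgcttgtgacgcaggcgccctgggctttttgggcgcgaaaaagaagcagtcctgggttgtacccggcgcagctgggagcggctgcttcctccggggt

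*DNAJB9* held 1 such box and *DNAJB11* held 3. The RefSeq start of *DNAJB9* lies 306 bases from its principal transcript in GENCODE. In all, 16 of the 39 genes with a promoter held the box. Of these 4 (*DNAJB1*, *DNAJB9*, *DNAJB11* and *DNAJC3*) rose and 3 (*DNAJC10*, *DNAJC11* and *DNAJC30*) fell. Of all 39 genes with a promoter, 16 were raised. By promoter, 21 of the 51 held the box, against 34.6% of all promoters. *DNAJC13* and *DNAJC9* held none of the 8 motifs searched; the RefSeq start of *DNAJC9* lies 1607 bases from its principal transcript in GENCODE. The full ER stress response element, CCAAT and CCACG with 9 bases of any kind between them, was in 0 of the 51 promoters and in 27 of all promoters (0.0769%). The XBP1 and ATF6 core TGACGTG was in *DNAJC10* and *DNAJC25*, of which neither rose, against 1.97% of all promoters. The cAMP response element TGACGTCA was in *DNAJC27* alone (1.85% of all promoters), and the antioxidant element core TGACNNNGC in *DNAJA2*, *DNAJB6*, *DNAJC10* and *DNAJC11* (13.3%).

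*DNAJB1* encodes the main HSP70 co-chaperone of heat-stressed cytosol. *DNAJB1* held 179, 209.6 and 218 CPM in the DMSO libraries and 2019, 1649 and 1327 CPM in the DSF/Cu libraries. All DSF/Cu libraries lay far above all DMSO libraries, with replicate 1 the highest and replicate 3 the lowest of the treated. *DNAJB1* rose 8.23-fold (log2 change 3.04 ± 0.17, SE; edgeR adjusted p = 9.13e-05). Among 1799 raised genes with a mean of at least 5 FPKM (fragments scaled by gene length and library size) after DSF/Cu, its change ranked 50. The row spans chr19:14514769-14529308 on the minus strand and shares bases with *TECR* on the other strand, which was not called.

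*DNAJB4* and *DNAJB5* are the closest relatives of *DNAJB1*. *DNAJB4* held 24.6, 21.4 and 26.3 CPM in the DMSO libraries and 91.8, 91.1 and 88.8 CPM in the DSF/Cu libraries. The treated libraries were close together and well above the DMSO libraries. *DNAJB4* rose 3.76-fold (log2 change 1.91 ± 0.09, SE; edgeR adjusted p = 5.03e-05). *DNAJB5* held 3.06, 14.9 and 13.0 CPM in the DMSO libraries and 4.77, 13.9 and 17.5 CPM in the DSF/Cu libraries. The groups overlapped for *DNAJB5*, the replicate 1 libraries of both groups being the lowest, and it was not called (log2 change 0.22 ± 0.66, edgeR adjusted p = 0.829).

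Class A held the most abundant gene of the family in DMSO, *DNAJA1*, a general co-chaperone of the cytosol. *DNAJA1* held 432, 462 and 464 CPM in the DMSO libraries and 890.3, 838 and 805 CPM in the DSF/Cu libraries. The groups were well apart and each was tight. *DNAJA1* rose 1.87-fold (log2 change 0.90 ± 0.06, SE; edgeR adjusted p = 0.000124). Its relative *DNAJA2* held 145, 160.5 and 156 CPM in DMSO and 182, 191 and 177 after DSF/Cu, a small rise (0.25 ± 0.06, edgeR adjusted p = 0.0173). This call was lost under total counts (0.07, adjusted p = 0.412) and without DSF/Cu replicate 2 (adjusted p = 0.0558).

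*DNAJA4*, also a cytosolic class A gene, was almost silent in DMSO. *DNAJA4* had 18, 22 and 19 counts in DMSO and 208, 138 and 87 after DSF/Cu, or 0.236, 0.328 and 0.288 and 3.69, 2.39 and 1.65 CPM. The lowest treated library held more than the highest DMSO library by a wide margin. *DNAJA4* rose 9.03-fold (log2 change 3.17 ± 0.38, SE; edgeR adjusted p = 0.00127). With log2(FPKM + 1) in limma the change was only 0.33, since its mean level was 0.0377 FPKM in DMSO and 0.308 after DSF/Cu, far under the added 1. Its row shares bases with *WDR61* on the other strand, which held 11899 counts over all libraries against 492 for *DNAJA4* and was not called.

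*DNAJB2* and *DNAJB6* are cytosolic genes known for keeping misfolded proteins from aggregating, *DNAJB2* with motifs that bind ubiquitin. *DNAJB2* held 15.7, 18.8 and 20.4 CPM in the DMSO libraries and 44.9, 38.8 and 37.4 CPM in the DSF/Cu libraries. *DNAJB6* held 256, 367 and 253 CPM in the DMSO libraries and 552, 489.7 and 477 CPM in the DSF/Cu libraries. In neither did the groups overlap, although DMSO replicate 2 of *DNAJB6* stood above the rest of its group. *DNAJB2* rose 2.20-fold (log2 change 1.14 ± 0.13, SE; edgeR adjusted p = 0.000956). *DNAJB6* rose 1.74-fold (log2 change 0.80 ± 0.15, SE; edgeR adjusted p = 0.00861). *DNAJB7* and *DNAJB8*, relatives of *DNAJB6* usually tied to testis, were near 0: *DNAJB7* had 0, 4 and 32 counts in DMSO and 4, 23 and 111 after DSF/Cu (not called, 2.24 ± 1.58, edgeR adjusted p = 0.325). *DNAJB7* shares bases with the raised *XPNPEP3* on the other strand, which held 8675 counts over all libraries against 174. *DNAJB8* had 4 counts in 1 treated library and 0 in the rest.

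**Figure D1:**
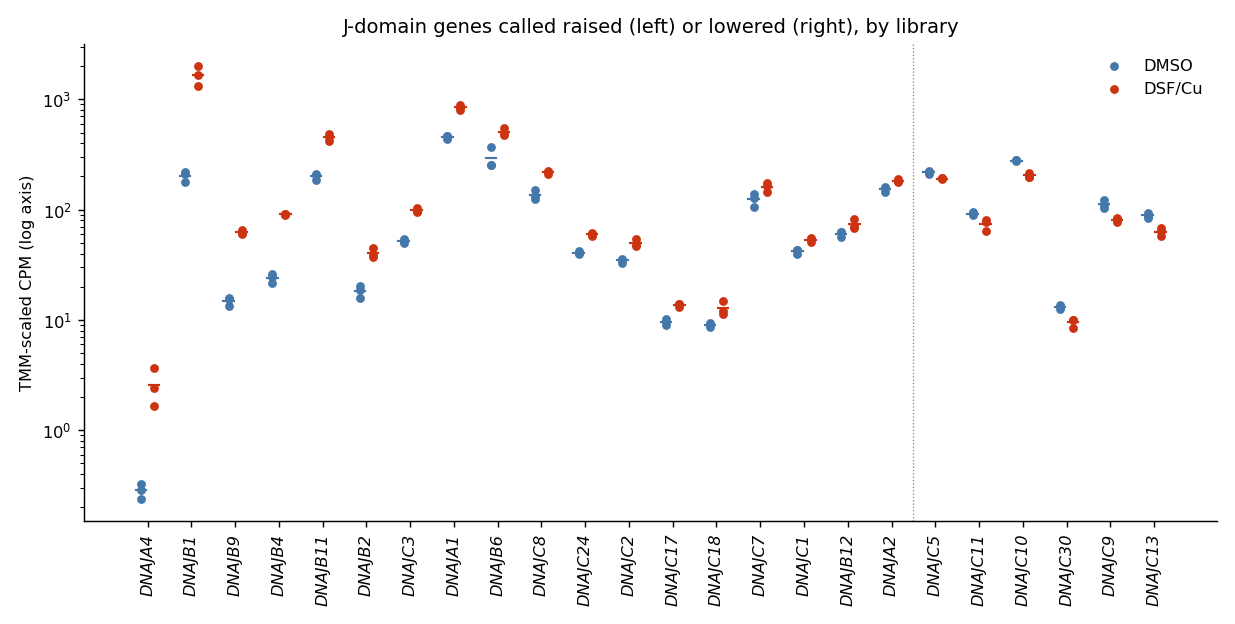
TMM-scaled CPM on a log axis for the 18 raised and 6 lowered genes, in order of their change; points are libraries (3 in DMSO, 3 after DSF/Cu) and short lines are group means. For *DNAJB1* the treated libraries lay between 1327 and 2019 CPM and the DMSO libraries between 179 and 218. For all 24 genes the groups were apart. The genes were picked by the test on these same libraries, so this is no further support for the calls.

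Among the 10 genes assigned to the ER, 6 rose and 1 fell, against 18.5% and 16.8% of all tested genes. *DNAJB9* (ERdj4), *DNAJB11* (ERdj3) and *DNAJC3* (p58IPK) are lumenal partners of the ER HSP70, which *HSPA5* encodes. *DNAJB9* held 13.3, 15.9 and 15.4 CPM in the DMSO libraries and 60.6, 61.0 and 64.7 CPM in the DSF/Cu libraries. *DNAJB11* held 186, 206 and 211 CPM in the DMSO libraries and 489.8, 451 and 423 CPM in the DSF/Cu libraries. *DNAJC3* held 54.2, 51.7 and 49.4 CPM in the DMSO libraries and 94.9, 103 and 97.3 CPM in the DSF/Cu libraries. All 3 genes had tight groups that did not overlap. *DNAJB9* rose 4.18-fold (log2 change 2.06 ± 0.09, SE; edgeR adjusted p = 4.19e-05). *DNAJB11* rose 2.26-fold (log2 change 1.18 ± 0.08, SE; edgeR adjusted p = 0.000155). *DNAJC3* rose 1.90-fold (log2 change 0.92 ± 0.06, SE; edgeR adjusted p = 0.000178).

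*DNAJC10* (ERdj5), a lumenal disulfide reductase, went the other way from these lumenal partners. *DNAJC10* held 274, 279 and 282 CPM in the DMSO libraries and 199.5, 215 and 198 CPM in the DSF/Cu libraries. Each treated library was below each DMSO library. *DNAJC10* was 1.36-fold lower (log2 change -0.45 ± 0.05, SE; edgeR adjusted p = 0.00116). The call held in every alternative run (14 of 14), with log2 changes from -0.63 to -0.42.

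Among genes of ER membrane proteins 3 rose, each by less than 0.5 on the log2 scale. *DNAJC1* (ERdj1) rose by 0.35 ± 0.07 (log2, edgeR adjusted p = 0.00984; 0.16 and 0.0954 under total counts), *DNAJC18* by 0.49 ± 0.14 (0.0308) and *DNAJB12*, which helps to degrade membrane proteins, by 0.28 ± 0.08 (0.0416). The latter calls were unstable. *DNAJC18* lost its call without DMSO replicate 1 (edgeR adjusted p = 0.0641), 2 (0.0870) or 3 (0.0913) or DSF/Cu replicate 1 (0.0530) or 3 (0.0729). *DNAJB12* lost it without DMSO replicate 1 (0.0785), 2 (0.0872) or 3 (0.131) or DSF/Cu replicate 1 (0.0838) or 2 (0.0713). Under total counts their changes were 0.31 (edgeR adjusted p = 0.136) and 0.09 (0.390).

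*DNAJB14*, the relative of *DNAJB12*, held 28.1 to 29.9 CPM in DMSO and 21.0 to 26.7 after DSF/Cu. It was not called (-0.28 ± 0.10, edgeR adjusted p = 0.0810), though it was without DSF/Cu replicate 2 (0.0487) and under total counts (-0.46, 0.0181). *DNAJC16* (ERdj8) held 17.98 to 20.3 CPM in DMSO and 17.4, 11.7 and 6.18 after DSF/Cu. The treated libraries of *DNAJC16* were all lower but far apart. It was not called (-0.73 ± 0.34, edgeR adjusted p = 0.150), though it was without DSF/Cu replicate 1 (-1.11, 0.0377). *DNAJC16* shares bases with the lowered *AGMAT* on the other strand, which held 3263 counts against 6066. *DNAJC14* had 1757, 3201 and 2992 counts in DMSO and 2226, 2290 and 2100 after DSF/Cu (not called). A second row on the same strand, AC023055, covers part of *DNAJC14* and held 1089, 20 and 808 counts in DMSO, the lowest where *DNAJC14* was highest, so the split of counts between these rows is uncertain.

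Of the cytosolic and nuclear class C genes, *DNAJC8*, *DNAJC24*, *DNAJC2*, *DNAJC17* and *DNAJC7* rose, *DNAJC9* fell and *DNAJC21* was not called. Those that rose by 0.5 or more on the log2 scale were *DNAJC8*, a spliceosome-associated gene, *DNAJC24*, which acts in diphthamide synthesis, *DNAJC2*, a ribosome-associated co-chaperone, and *DNAJC17*, a nuclear splicing-associated gene. *DNAJC8* held 134, 149 and 126 CPM in the DMSO libraries and 222, 222 and 209 CPM in the DSF/Cu libraries. *DNAJC24* held 41.9, 40.5 and 39.2 CPM in the DMSO libraries and 59.6, 62.0 and 57.7 CPM in the DSF/Cu libraries. The groups of both were tight and apart. *DNAJC8* rose 1.60-fold (log2 change 0.67 ± 0.07, SE; edgeR adjusted p = 0.000937). *DNAJC24* rose 1.48-fold (log2 change 0.56 ± 0.06, SE; edgeR adjusted p = 0.000995). *DNAJC2* held 35.2, 32.8 and 35.9 CPM in DMSO and 47.5, 47.2 and 54.0 after DSF/Cu (0.52 ± 0.08, edgeR adjusted p = 0.00381). *DNAJC17* held 10.2, 9.04 and 9.66 in DMSO and 14.0, 13.1 and 14.0 after DSF/Cu (0.51 ± 0.10, edgeR adjusted p = 0.00979; 0.32 and 0.0513 under total counts). *DNAJC17* shares bases with *ZFYVE19* on the other strand, which was not called and held 6944 counts against 4316. *DNAJC2* shares bases with the raised *PSMC2* on the other strand, which held 93514 counts against 15517. The strand setting of the counting is not given in the sources used here, so reads of the 2 genes may be mixed.

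*DNAJC7*, which binds both HSP70 and HSP90, held 105, 138 and 128 CPM in DMSO and 144, 174 and 164 after DSF/Cu. Its rise of 0.38 ± 0.12 (edgeR adjusted p = 0.0470) was lost without DMSO replicate 1 (0.0951) or 3 (0.0957), without DSF/Cu replicate 2 (0.128) or 3 (0.110), and under total counts (0.20, 0.252). The lowered *CNP* shares bases with *DNAJC7* on the other strand. *DNAJC21*, a ribosome maturation factor, was not called (0.26 ± 0.16, edgeR adjusted p = 0.256), and its groups overlapped.

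*DNAJC9*, a co-chaperone of histones H3 and H4, was the only gene assigned to the cytosol and nucleus that fell. *DNAJC9* held 123, 103 and 111 CPM in the DMSO libraries and 76.7, 83.7 and 82.6 CPM in the DSF/Cu libraries. The groups did not overlap. *DNAJC9* was 1.39-fold lower (log2 change -0.47 ± 0.08, SE; edgeR adjusted p = 0.00548). In bulk RNA, fewer cells that express a gene and less of its RNA per cell cannot be told apart. *FAM149B1*, which shares bases with *DNAJC9* on the other strand, also fell but held 3357 counts against 37141.

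Of the 3 endosome and vesicle genes none rose and 2 fell, against 18.5% and 16.8% of all tested genes. *DNAJC13* held 93.1, 84.7 and 88.3 CPM in the DMSO libraries and 57.1, 63.5 and 67.4 CPM in the DSF/Cu libraries. *DNAJC13* (RME-8), an endosomal gene, was lower in each treated library. *DNAJC13* was 1.42-fold lower (log2 change -0.50 ± 0.08, SE; edgeR adjusted p = 0.0039). *DNAJC5*, the cysteine string protein of secretory vesicles, held 225, 210.0 and 218 CPM in DMSO and 192, 192 and 189 after DSF/Cu. This was a fall by 0.19 ± 0.05 on the log2 scale (edgeR adjusted p = 0.0218). The call on *DNAJC5* was lost without DMSO replicate 1 (0.0525) or 3 (0.0595) or DSF/Cu replicate 2 (0.0677) or 3 (0.0695). *DNAJC6* (auxilin), which uncoats clathrin vesicles, was not called (-0.26 ± 0.13, edgeR adjusted p = 0.164; -0.44 and 0.0342 under total counts).

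None of the 5 mitochondrial genes rose, and 2 fell by little. Among all tested genes 18.5% rose and 16.8% fell, so a lack of rises among 5 genes says little. *DNAJC30* of the inner membrane held 13.6, 12.5 and 13.0 CPM in DMSO and 9.91, 10.0 and 8.51 after DSF/Cu (-0.46 ± 0.11, edgeR adjusted p = 0.0204). *DNAJC11*, found with the cristae-organising complex, held 94.9, 92.6 and 88.7 in DMSO and 64.3, 80.1 and 77.2 after DSF/Cu (-0.32 ± 0.09, edgeR adjusted p = 0.0366). For both the groups were apart, but both calls were lost when single libraries were left out. *DNAJC30* lost its call without DMSO replicate 1 (edgeR adjusted p = 0.0623) or 3 (0.0527) or DSF/Cu replicate 3 (0.0585); it also shares bases with the raised *BUD23* on the other strand. *DNAJC11* lost it without DMSO replicate 1 (0.0987), 2 (0.0926) or 3 (0.0670) or DSF/Cu replicate 3 (0.0628).

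*DNAJC19* (TIM14), the J protein of the import motor, held 31.6, 32.2 and 32.9 CPM in DMSO and 22.6, 30.2 and 22.1 after DSF/Cu. It was lower in each treated library but not called (-0.37 ± 0.13, edgeR adjusted p = 0.0729), DSF/Cu replicate 2 being nearest to DMSO; without it the change was -0.52 (0.00849). Its relative *DNAJC15* lay at -0.05 ± 0.08 (0.684; -0.23 and 0.0477 under total counts). The matrix co-chaperone *DNAJA3* (TID1) held 93.9, 64.1 and 92.0 CPM in DMSO and 94.3, 88.6 and 57.7 after DSF/Cu, with overlapping groups and no call (edgeR adjusted p = 0.875).

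**Figure D2:**
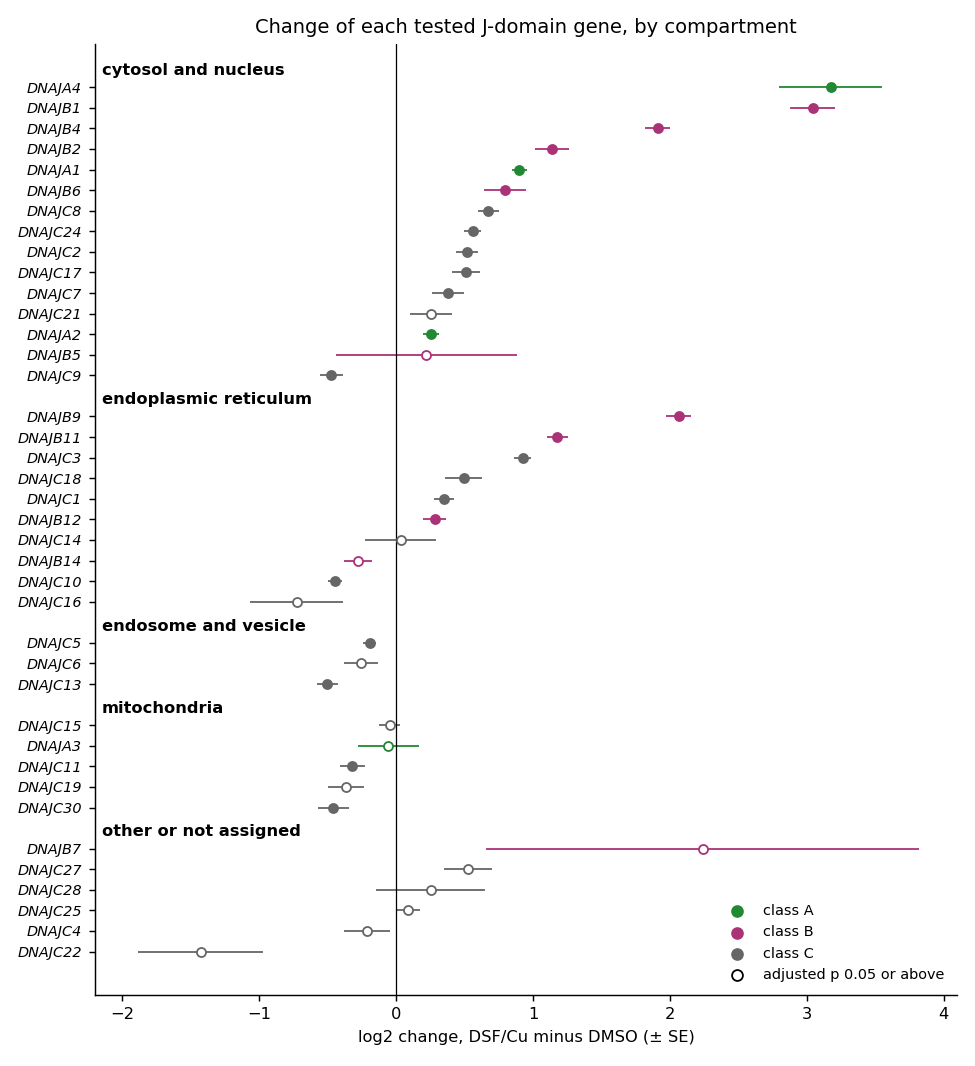
Log2 change of the 39 tested genes (DSF/Cu minus DMSO, bars are SE worked out from the edgeR F statistic), grouped by compartment and coloured by class. Open points were not called. Of 15 cytosolic and nuclear genes 12 rose, and none of the 3 endosome and vesicle or 5 mitochondrial genes did. Of all tested genes 18.5% rose.

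The 8 genes with another or no compartment assigned, *DNAJB7* among them, gave no call, and only 6 of them were tested. Among all tested genes 18.5% rose and 16.8% fell, so a lack of calls among 6 genes says little. *DNAJC22*, a membrane protein of unclear role, held 5.77, 6.09 and 6.83 CPM in DMSO and 2.16, 3.83 and 0.946 after DSF/Cu. All treated libraries were lower, but they differed from each other by several-fold, and it just missed the threshold (-1.43 ± 0.46, edgeR adjusted p = 0.0514). It was called with DESeq2 (adjusted p = 0.00456), under total counts (-1.61, 0.0306), without DSF/Cu replicate 2 (-1.99, 0.0160) and without DSF/Cu replicate 3 (-1.05, 0.0426). *DNAJC27*, a RAB-like GTPase with a J domain, lay at 0.52 ± 0.18 (edgeR adjusted p = 0.0595), with no overlap between groups. *DNAJC4*, *DNAJC25* and *DNAJC28* had overlapping groups and log2 changes from -0.21 to 0.25. *DNAJC25* shares sequence with the readthrough gene DNAJC25-GNG10, so its count is uncertain, and *DNAJC4* shares bases with the lowered *NUDT22* on the same strand.

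*DNAJC12*, *DNAJB8* and *DNAJB13*, a gene of cilia and sperm tails, did not pass the count filter. *DNAJC12* had 6, 8 and 0 counts in DMSO and 0, 0 and 13 after DSF/Cu, and *DNAJB13* had 0, 0 and 4 against 0, 0 and 14. A count of 0 allows up to 3 counts, or 0.0393 to 0.0567 CPM by library, for counting error only.

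By class, 3 of 4 class A, 7 of 10 tested class B and 8 of 25 tested class C genes rose, and 0, 0 and 6 fell (median log2 changes 0.58, 1.16 and 0.03). By compartment, the counts of rises and falls were 12 and 1 of 15 in the cytosol and nucleus, 6 and 1 of 10 in the ER, 0 and 2 of 3 in endosomes and vesicles and 0 and 2 of 5 in mitochondria. Their median log2 changes were 0.56, 0.32, -0.26 and -0.32. Among all tested genes, 18.5% rose and 16.8% fell, as above. No test between classes or compartments was run. In 19 of the 39 genes every treated library was above every DMSO library, and in 11 every treated library was below; over all tested genes these shares were 26% and 25.2%.

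Levels per length are given by the deposited FPKM, summed over the 42 genes. The sum was 531, 560 and 557 FPKM in DMSO and 1108, 1039 and 949 after DSF/Cu, higher in each treated library. *DNAJA1* was the highest gene in DMSO at 153 ± 5.04 FPKM (SD, n = 3), followed by *DNAJB1* at 49.9 ± 4.72, *DNAJC8* at 42.5 ± 3.51, *DNAJC5* at 36.8 ± 1.54 and *DNAJB11* at 31.6 ± 1.93. After DSF/Cu *DNAJB1* was the highest at 364 ± 69.2, then *DNAJA1* at 253 ± 8.26, *DNAJB11* at 63.5 ± 3.54 and *DNAJC8* at 60.3 ± 1.56. In the treated libraries *DNAJB11* held 67.1, 63.4 and 59.96 FPKM and *DNAJC8* 60.1, 61.9 and 58.8, so that *DNAJB11* was the higher in each library by a small margin.

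*DNAJB1* made up 8.41%, 9.19% and 9.65% of the summed FPKM in DMSO and 39.2%, 35.0% and 31.1% after DSF/Cu. The groups did not overlap, and the mean rose by 26.0 percentage points (two-sided exact permutation p = 0.1, the smallest that 3 against 3 can give). Class B as a whole went from 23.0 ± 1.11% to 49.6 ± 3.27% (SD, n = 3), class C from 42.1 ± 1.01% to 22.0 ± 2.08% and class A from 34.9 ± 0.489% to 28.4 ± 1.21%, each with an exact permutation p of 0.1. Without *DNAJB1* in the sum, the share of class A rose by 5.40 points, while with it the share fell by 6.51 points. The share of the ER genes went from 17.3 ± 0.413% to 14.0 ± 0.765%, and without *DNAJB1* it rose by 2.50 points.

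In FPKM the mitochondrial genes summed to 46.6, 42.0 and 45.8 in DMSO and 32.8, 37.0 and 31.1 after DSF/Cu. The endosome and vesicle genes summed to 48.5, 44.6 and 46.6 in DMSO and 33.9, 35.1 and 35.7 after DSF/Cu. Both sums were lower in each treated library (exact permutation p = 0.1 each). These FPKM sums are not TMM-scaled; the median log2 change of all tested genes was -0.15 on log2(FPKM + 0.1).

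**Figure D3:**
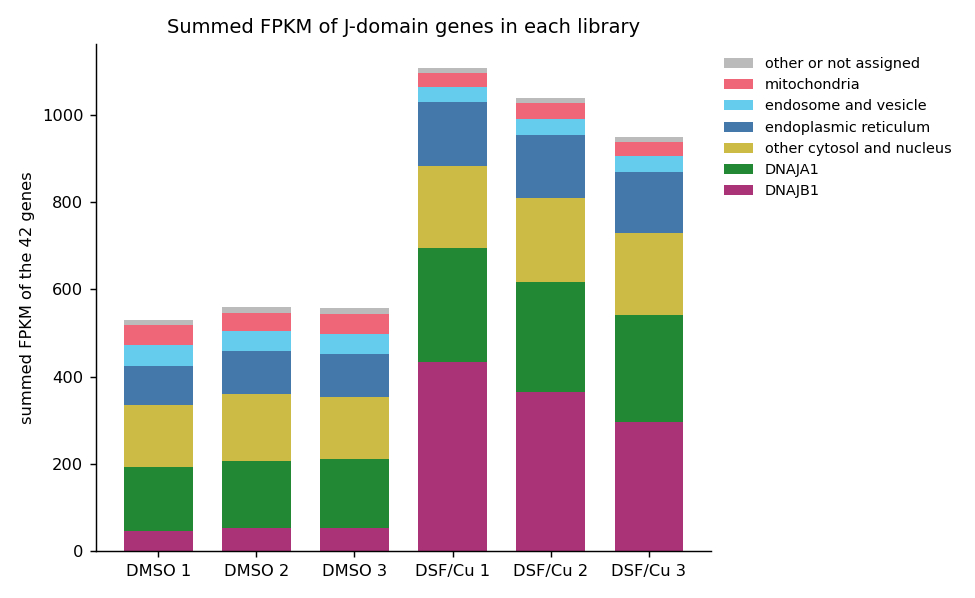
Summed FPKM of the 42 genes in each library, stacked by *DNAJB1*, *DNAJA1* and compartment. *DNAJB1* is the smallest of the 3 cytosolic and nuclear blocks in DMSO (9.08% of the sum on average) and the largest of all blocks after DSF/Cu (35.1%).

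The partners of these genes in the HSP70 cycle came from lists made up for this study of the family. Of 13 tested rows for 12 HSP70 genes 9 rose and none fell (median log2 change 0.76), against 18.5% and 16.8% of all tested genes. *HSPA14* is the doubled gene, with a row that rose (0.56 ± 0.17, edgeR adjusted p = 0.0459) and a row that was not called (0.12 ± 0.07, 0.255). The 4 called with the lowest adjusted p were *HSPA1B*, *HSPA6*, *HSPA5* and *HSPA8*. *HSPA1B*, an inducible cytosolic HSP70, held 162, 154 and 171 CPM in DMSO and 14913, 12109.7 and 11600.2 after DSF/Cu, *HSPA5* of the ER held 1294, 1382 and 1372 and 7604, 7102 and 6634, and mitochondrial *HSPA9* held 651, 773 and 737 and 1198, 1294 and 1158. None of these groups overlapped. *HSPA6*, a strictly inducible cytosolic HSP70, had 62, 66 and 31 counts in DMSO and 177891, 138832 and 132428 after DSF/Cu. *HSPA8*, the constitutive cytosolic HSP70, rose by 1.05 ± 0.06 (log2, edgeR adjusted p = 8.55e-05). *HSPA1A* and *HSPA1B* are near-identical copies, so the split of counts between them is uncertain. *HSPA9*, named after its values were seen, rose by 0.76 ± 0.08 (log2, edgeR adjusted p = 0.000699). None of the 5 J-domain genes of mitochondria was called raised, too few to set against 18.5% of all tested genes.

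Of 13 nucleotide exchange factor genes 4 rose, 2 fell and 7 were not called (median 0.10). Among all tested genes 18.5% rose and 16.8% fell, so the share of falls was near that of all genes. The HSP110 gene *HSPH1* rose by 2.17 ± 0.06 (edgeR adjusted p = 8.52e-06) and *BAG3* by 1.60 ± 0.10 (0.000153). *SIL1*, an exchange factor of the ER HSP70 but not the only one, fell by 0.58 ± 0.06 (edgeR adjusted p = 0.001). The mitochondrial *GRPEL1*, named after its values were seen, was not called (0.26 ± 0.21, edgeR adjusted p = 0.387). *BAG2*, an inhibitor of the CHIP ubiquitin ligase, fell by 0.38 ± 0.10 (edgeR adjusted p = 0.0233).

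Ratios of summed FPKM set the HSP70 genes against the J-domain genes of the same compartment; these ratios were chosen after the values were seen. Cytosolic HSP70 genes (*HSPA1A*, *HSPA1B*, *HSPA1L*, *HSPA2*, *HSPA6*, *HSPA8* and *HSPA14*) over the 16 cytosolic and nuclear J-domain genes gave 1.69, 1.44 and 1.65 in DMSO and 11.6, 10.5 and 11.5 after DSF/Cu. Both rows of *HSPA14* are in the cytosolic HSP70 sum. In the ER, *HSPA5* over the 10 J-domain genes gave 3.35, 3.21 and 3.22 in DMSO and 10.4, 10.1 and 9.80 after DSF/Cu. In mitochondria, *HSPA9* over the 5 J-domain genes gave 1.54, 2.00 and 1.76 in DMSO and 3.47, 3.41 and 3.67 after DSF/Cu. All 3 ratios were higher in each treated library (exact permutation p = 0.1 each, the smallest possible), by 7.04, 3.09 and 1.99 times. A ratio within a library does not depend on how libraries are scaled. It does not measure protein.

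**Figure D4:**
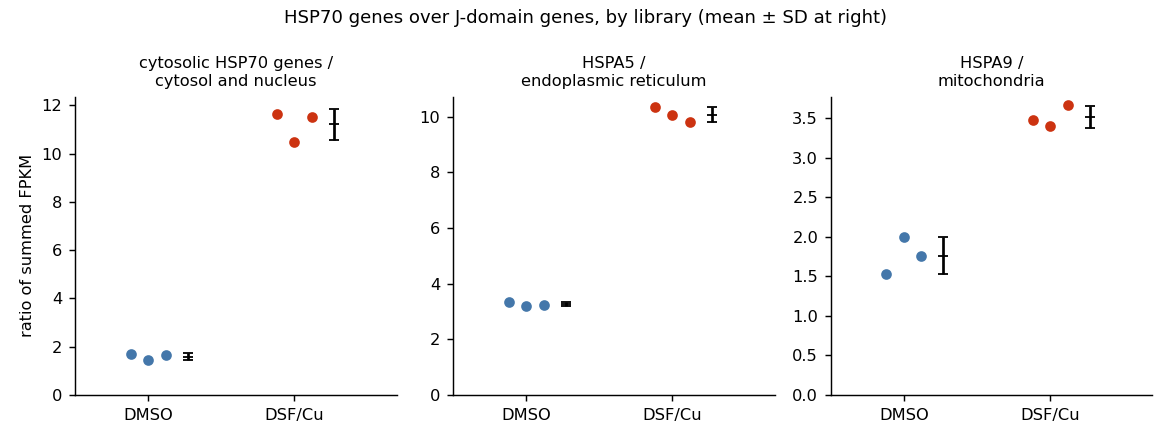
Ratio of summed FPKM of HSP70 genes to that of the J-domain genes of the same compartment; points are libraries, bars are mean ± SD (n = 3), and each axis starts at 0. The cytosolic ratio went from 1.59 ± 0.134 to 11.2 ± 0.63, the ER ratio from 3.26 ± 0.0769 to 10.1 ± 0.28 and the mitochondrial ratio from 1.76 ± 0.231 to 3.52 ± 0.136.

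J-domain genes with other names were outside the rule. *GAK*, the widely expressed relative of auxilin, rose by 0.46 ± 0.09 (edgeR adjusted p = 0.00794), and *SEC63* of the ER translocon by 0.28 ± 0.05 (0.0088). *HSCB*, which serves iron-sulfur cluster transfer in mitochondria, was not called (0.21 ± 0.19, 0.438). DNAJC5B and DNAJC5G had no count in any library.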

How the data were processed

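RNA-seq of 6 MDA-MB-231 libraries was analysed from the table the authors deposited, which holds raw read counts and FPKM (fragments scaled by gene length and library size) per gene and library, per the file headers. Bowtie 0.12.2, HISAT2 2.0, StringTie 1.3.0 and the mouse build mm8 are named per the submitters' processing notes, although the genes are human; neither the counting tool nor its strand setting is given in the sources used here. All 42 gene IDs are in GENCODE 29, and 17 have the same start and end there. Columns headed as control were matched to the DMSO samples by number.

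Counts were tested with edgeR 4.0.16 in R 4.3.3 (filterByExpr, TMM scaling, quasi-likelihood F test, two-sided, Benjamini-Hochberg over 18229 genes, threshold 0.05). Libraries held 55563223 to 70883177 counts. The SE of a log2 change is its absolute size divided by the square root of the edgeR F statistic. Shares and sums of FPKM had exact permutation tests. Alternatives were other scalings and count filters, DESeq2 1.42.0, limma 3.58.1 on log2(FPKM + 1) and log2(FPKM + 0.1), the replicate number as a block, and leaving out each library. On simulated counts the edgeR test recovered 8 of 73 genes changed 1.5-fold, 37 of 67 changed 2-fold and 46 of 55 changed 4-fold. It called 9 of 17466 unchanged genes (17661 genes). Far fewer genes were changed there than were called in the data, where 3365 of 18229 rose and 3059 fell. Recovery with that many changed genes was not tested.

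The genes, lists, compartments and motifs were chosen with earlier results of these data known; compartments and roles come from general knowledge. Genes called with an absolute log2 change of at least 0.5, and the 5 highest by FPKM, are given by library. Up to 4 called genes of a list are named by adjusted p. Promoters are those of the 4 largest rises and 2 largest falls among genes of at least 1 FPKM, plus 3 chosen later. 1 further gene of the lists is not reported here.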

Additional observations from a re-analysis of the deposited data

How the results depend on the processing

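Of the 18 rises 12, and of the 6 falls 3 (DNAJC10, DNAJC9 and DNAJC13), kept their call in all 14 alternatives. With total counts 11 genes fell, 1 of class B and 10 of class C, while 4 of class C and 3 of the ER rose, and 2 of the ER, 4 of mitochondria and 1 with another compartment fell. With log2(FPKM + 1) in limma 11 fell (1 of class B, 10 of class C, 3 of the ER, 1 other) and 5 of class C rose. With log2(FPKM + 0.1) 9 fell (1 of class B, 2 of the ER, 1 other) and 5 of class C rose. Falls were also more common over all genes in these settings. Under total counts 4856 of all 18229 tested genes fell and 2356 rose. With log2(FPKM + 1) 4791 fell and 2485 rose, and with log2(FPKM + 0.1) 4727 fell and 2544 rose. DESeq2 gave 1 other gene lower, and a minimum of 10 counts 1 other gene higher and 1 lower. The cause of these shifts was not tested.

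The replicate number as a block gave 17 rises and 3 falls (3 of class C, 1 of endosomes and vesicles, 0 of mitochondria). Over all 18229 tested genes the block gave 2692 rises and 2451 falls. Correlations of same-numbered libraries were 0.0222, -0.00238 and 0.0469, so the numbers were not taken as pairing, and not every library correlated best with its own number.

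Leaving out 1 library gave 15 to 16 rises and 3 to 8 falls. Rises were 2 to 3 in class A, 6 to 7 in B, 6 to 7 in C, 10 to 12 in the cytosol and nucleus and 4 to 5 in the ER. Falls were 0 to 1 in class B, 3 to 7 in C, 1 to 2 in the ER, 1 to 2 in endosomes and vesicles, 0 to 3 in mitochondria and 0 to 1 elsewhere. Over all genes these runs tested 18929 to 19113 and gave 2786 to 2953 rises and 2284 to 2550 falls.

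Without DNAJB1 the changes in share were 5.40 points for class A and 2.50 for the ER (both reversed), 7.02 for B, -12.4 for C, 6.38 for the cytosol and nucleus, -4.11 for endosomes and vesicles, -3.95 for mitochondria and -0.822 for the others. From summed counts they were -2.76 for class A, 16.9 for the cytosol and nucleus, -5.90 for the ER, -5.75 for endosomes and vesicles and -0.634 for the others. With 6 further J-domain genes the others changed by -1.49.

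Leaving out 1 library, the change in share ranged from 24.0 to 28.0 points for DNAJB1, -7.13 to -5.92 for class A, 24.9 to 28.1 for B, -21.0 to -19.0 for C, 13.8 to 15.2 for the cytosol and nucleus, -3.74 to -2.98 for the ER, -5.35 to -4.76 for endosomes and vesicles, -5.24 to -4.60 for mitochondria and -1.26 to -1.13 for the others. At this depth low counts limit DNAJB7, DNAJB8, DNAJB13 and DNAJC12.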

Other observations

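Rows with DNAJ names outside the family rule numbered 27, of which 19 were pseudogenes, 16 had no count in any library and 8 were tested. The processed pseudogene DNAJC8P1 had 95, 116 and 134 counts in DMSO and 207, 214 and 148 after DSF/Cu, and rose by 1.02 ± 0.24 on the log2 scale (edgeR adjusted p = 0.018). Its parent DNAJC8 rose as well, and how reads were split between such copies is not given in the sources used here. DNAJC3-DT, a long non-coding RNA named for its place beside DNAJC3, had 114, 70 and 94 counts in DMSO and 137, 138 and 146 after DSF/Cu (0.93 ± 0.22, edgeR adjusted p = 0.0164). The readthrough gene DNAJC25-GNG10 had 3198, 3666 and 3628 counts in DMSO and 2132, 1967 and 2196 after DSF/Cu, a fall by 0.42 ± 0.13 (edgeR adjusted p = 0.047), while DNAJC25 itself was not called.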
